A study of Oryza sativa Japonica Group with 18 samples.

Results

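The genes described here are 163 rice genes whose transcripts stood far lower in chilled than in control leaves in every line of the study. They were chosen from the measured values. A gene had to carry an Os locus ID, to average at least 10 FPKM (read fragments scaled to transcript length and library size, so that levels of genes of unequal length can be compared) in the control leaves of each of 3 lines, and to average in the cold at most 33.3% of the control mean in each line. The deposited table had 38610 rows, of which 35679 carried an Os locus ID. In 8803 of these the control floor was met in each line, and 163 of them (1.85%) also met the cold limit. The mirrored limit, a cold mean of at least 3 times the control mean in each line, was met by 141 of the 8803. None of the 2931 rows for numbered new genes (0 of 2931) met the limits of the 163.

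RNA was sequenced from leaves of Oryza sativa Japonica Group seedlings, grown to the 3-leaf stage with 14 h of day and 10 h of night. OX plants overexpress OsERF096, which by its name is an ethylene response factor, a kind of transcription factor. RNAi plants carry an RNA interference construct against that gene, and WT plants are wild type. Each line was sampled after 12 h at 4 °C (cold) and from normal growth without cold (control), with 3 libraries in each of the 6 groups, 18 in all. The records used here give no time of day for the harvests and no temperature for the control leaves. The part of either in the cold differences was not tested. The labels name neither the promoter of the OX construct nor the number of independent transformants behind OX and RNAi. Nor do they tell if replicate libraries stem from different plants, and the p-values below thus rest on a spread between libraries that could be technical. The row of OsERF096 was not analysed here, so the OX and RNAi labels stand unchecked by their target.

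A chilled rice leaf slows growth and photosynthesis while light is still absorbed. Genes for the chlorophyll-binding antenna, for the export and storage of sugars, for water channels and for cell expansion are commonly studied in that setting. A transcript that falls within hours does so through less synthesis, faster decay or both, and FPKM values of whole leaves do not separate these. In such bulk RNA, fewer cells of a type and less RNA per cell cannot be told apart either.

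The table pairs no gene with a name. Names were written from background knowledge and used only where the reference gene table placed the same name on the same chromosome and in the order of the locus numbers, which left 6 of the 163 genes with a checked name. These are CAB1R (Os09g0346500), for a chlorophyll a/b-binding protein of the light-harvesting antenna, RICMT (Os01g0974200) and MTE (Os05g0111300), for type-2 metallothioneins, and SWEET4 (Os02g0301100), SWEET14 (Os11g0508600) and SWEET1B (Os05g0426000), for sugar transporters. The other genes are given by locus ID.

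All libraries carried leaf transcripts. The Rubisco small subunit gene RBCS ranged from 1627 to 18192 FPKM, Rubisco activase (RA) from 2840 to 7034 FPKM and the antenna gene CAB2R from 2276 to 15724 FPKM. The root marker LSI2 and the meristem marker OSH1 were listed at 0 in all 18 libraries. LSI1, a silicon channel known from roots, ranged from 0.575 to 14.6 FPKM, and it was lower in cold than in control WT leaves (0.728 ± 0.133 against 7.10 ± 6.77 FPKM, SD, n = 3 each; limma, adjusted p = 0.0186). Its part in the WT values below was not tested. The dividing-cell gene CDKB2-1 was between 1.68 and 4.02 FPKM in the cold and between 0.172 and 1.25 FPKM in control leaves, and the mitotic cyclin gene CYCB2-2 was at most 0.146 FPKM.

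One library stood apart where these genes are concerned. In WT control replicate 2, 57 of the 163 genes (35.0%) differed by more than 1 on the log2(FPKM + 1) scale from the mean of the other WT control libraries, 48 of them downwards. The same held for 13.2% of the other 8640 genes at the floor. In 25 genes this library was at or below the highest WT cold library. Without it the median WT cold level of the 163 genes was 17.3% of control, against 19.5% with it, and 189 genes met the limits, of which 157 were among the 163. Results that rest on WT control leaves are given with that in view.

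In the cold most of the 163 genes were far below their control level. The median cold mean was 19.9% of the control mean in OX, 18.1% in RNAi and 19.5% in WT, where the other 8640 genes at the floor had medians of 85.1%, 83.7% and 89.6%. As group means, the median gene had 5.49 FPKM in the cold and 25.4 FPKM in control leaves of OX, 4.25 and 23.7 FPKM in RNAi, and 4.32 and 24.0 FPKM in WT. Since the limits fixed the direction and a least size, these values describe the choice and carry no test.

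The lowering was deep in few genes. The geometric mean of the cold-to-control ratio over the 3 lines ran from 2.18% to 32.1% of control, with 93 genes under 20%, 20 under 10% and 8 under 5%. In 2 genes the cold mean was under 1 FPKM in every line, and in 15 it was so in at least 1 line. Control levels were mostly moderate, since 98 genes averaged at least 20 FPKM over the lines, 43 at least 50 FPKM and 19 at least 100 FPKM.

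The libraries of a line separated for most of the genes. The highest cold library lay below the lowest control library for 158 of 163 genes in OX, 157 in RNAi and 138 in WT. Over all 23175 genes tested, groups separated in that direction for 28.3% in OX, 37.4% in RNAi and 37.6% in WT. A stricter separation, with the highest cold library at most 33.3% of the lowest control library, held for 73 genes in OX, 97 in RNAi and 79 in WT. Its share over all genes was not counted. The limits used the same libraries, so nothing is read from any of these counts or shares.

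**Figure D1:**
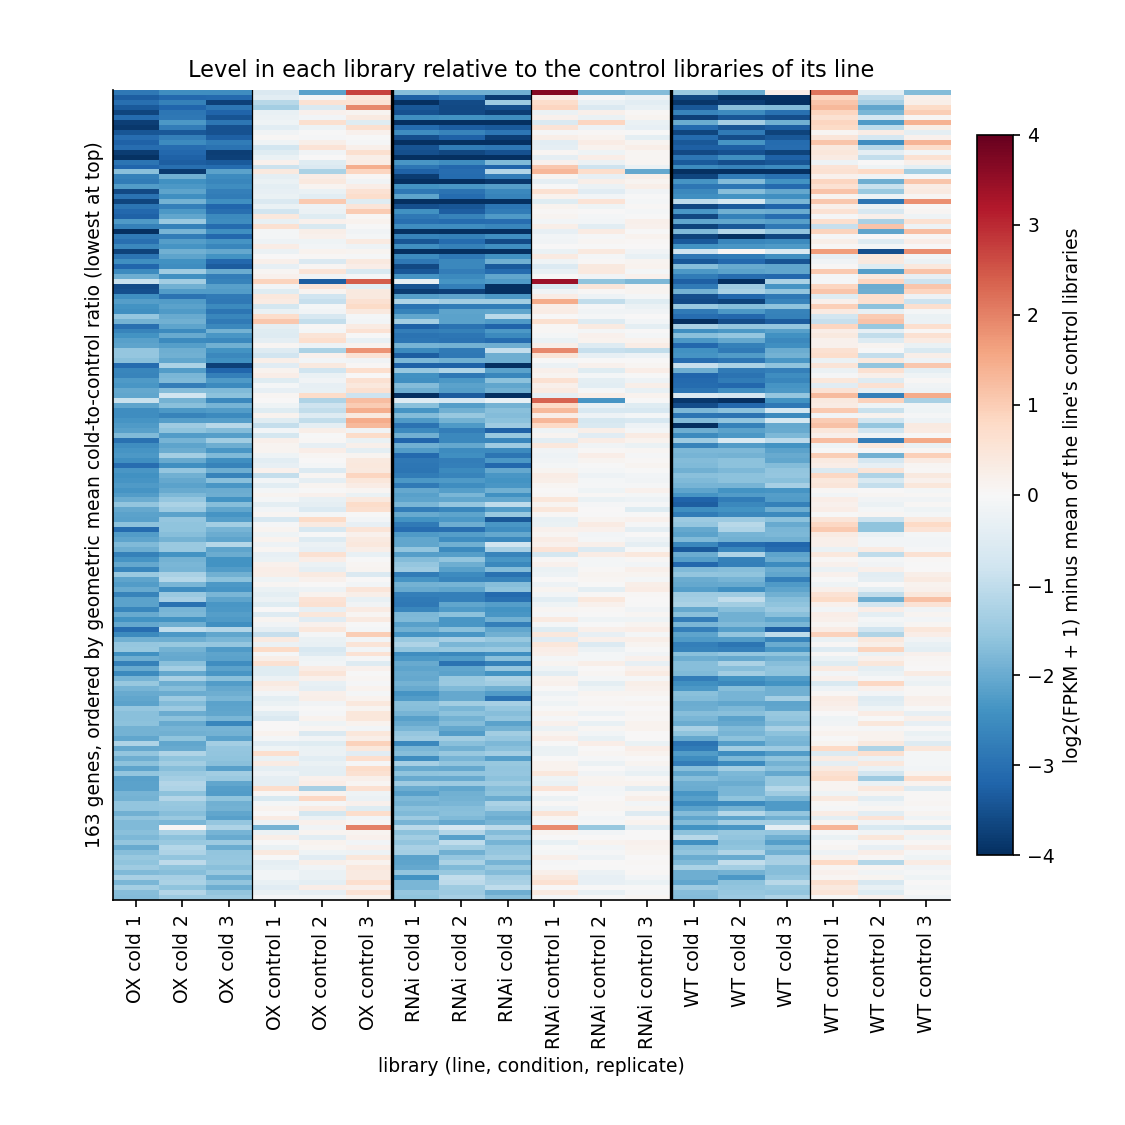
Each row is 1 of the 163 genes and each column 1 of the 18 libraries, cold left of control within each line; colour gives log2(FPKM + 1) minus the mean of the control libraries of the same line, and colours end at -4 and 4. The cold columns are blue throughout, with single exceptions, and the control columns are near white except in rows where 1 library is apart, most often WT control replicate 2.

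The choice used the libraries whose spread is given here, and a floor on the control mean can admit genes carried by 1 high control library, so the spread is a description. The median coefficient of variation of the 163 genes was 28.7% in OX control, 17.3% in RNAi control and 29.7% in WT control leaves, where the other genes had 17.7%, 10.1% and 14.9%. In the cold it was 25.5%, 24.0% and 23.4%, where the others had 11.1%, 12.2% and 10.1%, in the same order of lines. Cold means of the 163 genes were lower, which by itself raises a coefficient of variation, and the part of the level was not tested.

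Some genes were raised in single control libraries. Against the mean of the other libraries of the group, 25 of the 163 genes were higher by more than 1 (log2) in OX control replicate 3, 14 in RNAi control replicate 1, 35 in WT control replicate 1 and 21 in WT control replicate 3. Both WT counts are set against a mean that includes WT control replicate 2. In either direction, 16.0%, 9.20%, 23.3% and 16.6% of the 163 genes were off by more than 1 in these libraries, where 2.16%, 1.59%, 5.43% and 4.02% of the other genes at the floor were. Of the 14 genes in RNAi control replicate 1, 12 (85.7%) were among the 25 of OX control replicate 3, where they made up 48.0%. Of the 35 in WT control replicate 1, 9 (25.7%) were among those of OX control replicate 3 and 7 (20%) among those of RNAi control replicate 1. OX control replicate 3, RNAi control replicate 1 and WT control replicate 1 shared 6 genes, Os01g0940700, Os03g0624300, Os05g0550300, Os10g0569600, Os11g0323860 and Os11g0412484. Os01g0940700, Os10g0569600, Os11g0323860 and Os11g0412484 missed the limits without any one of these libraries. Os05g0550300 missed them without RNAi control replicate 1 or WT control replicate 1, but not without OX control replicate 3. Among these libraries, Os03g0624300 missed them only without OX control replicate 3.

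As a share of the summed FPKM of a library, the 163 genes took 0.257% to 0.450% in the cold and 1.37% to 1.87% in control leaves. CAB1R alone took 0.0592% to 0.194% in the cold and 0.308% to 0.655% in control leaves. It is the gene with the highest control level of the 163.

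CAB1R had 509.5, 1028 and 591 FPKM in cold OX leaves, against 5062, 3046 and 2313 FPKM in control OX leaves. In RNAi it had 755, 398 and 469.9 FPKM in the cold, against 3313, 3596 and 2415 FPKM in control leaves. In WT it had 1043, 1399.6 and 1049 FPKM in the cold, against 2419, 4643 and 3481 FPKM in control leaves. Cold and control libraries did not overlap in any line, and all WT cold libraries were above those of RNAi and OX. The cold mean was 20.4% of control in OX, 17.4% in RNAi and 33.1% in WT, which put CAB1R just inside the limit. Without WT control replicate 2, where it was highest, the WT value was 39.5%, and CAB1R then missed the limit, as it did without WT cold replicate 1 or 3. Antenna proteins such as this one bind chlorophyll and pass light energy to the photosystems.

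The other antenna genes with a checked name, CAB2R (Os01g0600900), RCABP69 (Os07g0562700) and RCABP89 (Os03g0592500), did not meet the limits. RCABP69 was lower in cold than in control RNAi leaves (871 ± 308 against 1999 ± 300.3 FPKM, SD, n = 3 each), with a difference of -1.24 ± 0.29 (SE) on the log2(FPKM + 1) scale and an adjusted p of 0.00265 in limma. None of the 3 passed the test in OX or WT (2 and 0 at an unadjusted p under 0.05). CAB2R, the most abundant of them, had differences of -1.03 in OX, -1.04 in RNAi and -0.47 in WT, none of which passed.

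RICMT, for a small cysteine-rich protein that binds metal ions, was the second most abundant of the 163 genes. It had 137, 137 and 151 FPKM in cold OX leaves, against 783, 523 and 924 FPKM in control OX leaves. Cold RNAi leaves had 161, 108 and 143 FPKM, against 701, 483 and 487 FPKM in control. Cold WT leaves had 91.7, 168 and 146 FPKM, against 726, 601 and 589.7 FPKM in control. The groups did not overlap, and the cold levels of the lines lay within each other's range, at 19.1% of control in OX, 24.6% in RNAi and 21.2% in WT.

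MTE, the other metallothionein gene, was less even. It had 38.1, 108 and 91.9 FPKM in cold OX leaves, against 359.5, 214 and 478 FPKM in control. RNAi leaves had 24.4, 25.2 and 36.5 FPKM in the cold, against 237, 239.5 and 164 FPKM in control. WT leaves had 44.2, 76.9 and 51.0 FPKM in the cold, against 384, 59.6 and 269.7 FPKM in control, so that cold and control overlapped in WT through control replicate 2. The cold mean was 22.6% of control in OX, 13.5% in RNAi and 24.1% in WT.

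Of the 3 other metallothionein genes tested, MT1A (Os11g0704500) and MT2A (Os01g0149800) were lower in cold than in control WT leaves. MT1A averaged 155 ± 49.0 FPKM in the cold and 408 ± 84.8 FPKM in control (SD, n = 3 each), a log2 difference of -1.42 ± 0.28 (SE; limma, adjusted p = 0.000735). MT2A averaged 197 ± 45.7 FPKM in the cold and 508 ± 153 FPKM in control, a difference of -1.34 ± 0.26 (adjusted p = 0.000788). In OX none of the 3 passed the test (1 at an unadjusted p under 0.05), and in RNAi 1 did, MT2A, whose call was lost without any one of the 6 RNAi libraries, at adjusted p from 0.0552 to 0.0996.

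SWEET proteins carry sugars across membranes along their gradient, and several move sucrose or hexoses out of leaf and seed cells. SWEET4, known in rice for sugar import into the filling grain, had 56.0, 73.6 and 69.8 FPKM in cold OX leaves, against 293, 210.2 and 451 FPKM in control. RNAi leaves had 52.3, 49.0 and 53.7 FPKM in the cold, against 347, 283 and 273 FPKM in control. WT leaves had 89.2, 98.7 and 94.3 FPKM in the cold, against 297, 248 and 328 FPKM in control. Cold libraries of each line were tightly grouped, and those of WT lay above all OX and RNAi ones. The cold mean was 20.9% of control in OX, 17.1% in RNAi and 32.3% in WT.

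SWEET1B kept a different order of lines. It had 10.0, 7.16 and 8.44 FPKM in cold OX leaves, against 50.7, 43.3 and 72.2 FPKM in control. RNAi leaves had 12.2, 8.97 and 9.45 FPKM in the cold, against 49.6, 31.6 and 50.02 FPKM in control. WT leaves had 4.54, 4.33 and 8.09 FPKM in the cold, against 33.4, 69.6 and 41.1 FPKM in control. The cold level was lowest in WT, at 11.8% of control, with 15.4% in OX and 23.3% in RNAi, and no group overlapped with its control.

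SWEET14, a sucrose transporter that rice pathogens of the genus Xanthomonas are known to induce, was the least abundant of the 3. Cold OX leaves had 9.19, 10.7 and 8.10 FPKM, against 37.5, 22.8 and 61.1 FPKM in control. Cold RNAi leaves had 7.62, 8.22 and 7.11 FPKM, against 40.9, 28.2 and 19.4 FPKM in control. Cold WT leaves had 5.29, 8.50 and 6.18 FPKM, against 25.1, 14.6 and 21.9 FPKM in control. Its cold means were 23.1%, 25.9% and 32.4% of control in OX, RNAi and WT, and the groups did not overlap.

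**Figure D2:**
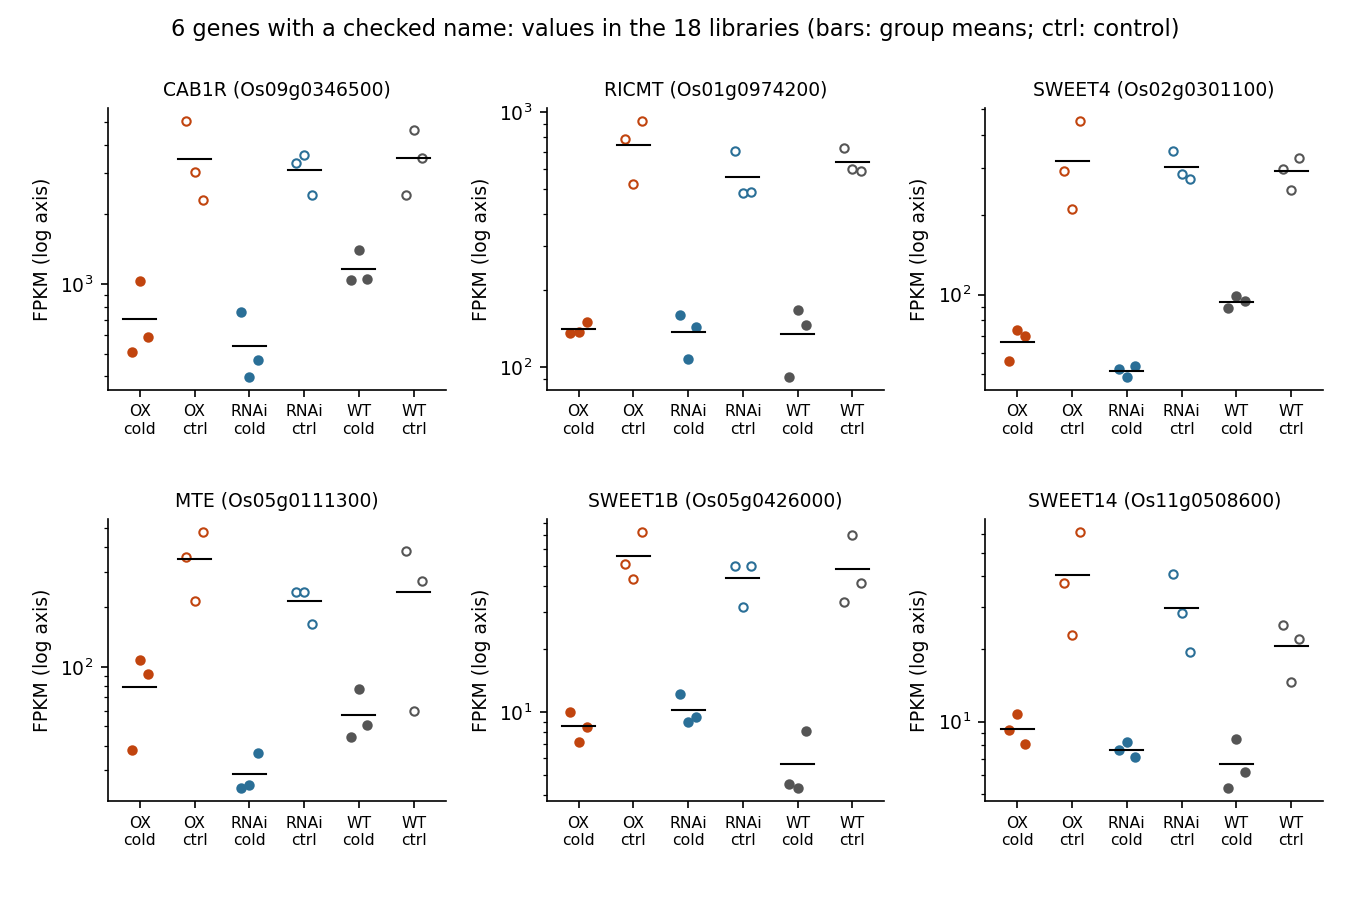
FPKM on a log axis in each of the 18 libraries for the 6 genes with a checked name; filled points are cold, open points control, bars are means of 3 libraries. CAB1R and SWEET4 lie higher in cold WT leaves than in cold OX or RNAi leaves, SWEET1B lies lowest in cold WT leaves, and MTE overlaps between cold and control WT leaves through 1 control library at 59.6 FPKM.

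Outside the 163 genes, 6 more SWEET genes were tested, and 3 of them fell in OX, 3 in RNAi and 0 in WT (limma). Among all genes tested, 22.4% fell in OX, 28.1% in RNAi and 31.7% in WT. The SWEET genes that fell were SWEET1A, SWEET13 and SWEET16 in both transgenic lines. SWEET1A (Os01g0881300) averaged 86.8 ± 7.23 FPKM in the cold and 141 ± 10.1 FPKM in control OX leaves (SD, n = 3 each; log2 difference -0.70 ± 0.11, SE; limma, adjusted p = 0.000167). In RNAi it averaged 83.1 ± 4.18 FPKM in the cold and 161 ± 16.5 FPKM in control (-0.95 ± 0.11, adjusted p = 6.96e-06). SWEET16 (Os03g0341300) fell by 2.30 in RNAi (adjusted p = 0.000417) and by 1.42 in OX (adjusted p = 0.0154), where the call was lost without OX cold replicate 1 or OX control replicate 3 (adjusted p up to 0.0774). SWEET13 (Os12g0476200) fell by 1.64 in RNAi (adjusted p = 0.00546) and by 1.16 in OX (adjusted p = 0.0431), where it was lost without OX cold replicate 1, OX cold replicate 3 or OX control replicate 3 (adjusted p up to 0.224). In WT, the 6 genes had an unadjusted p under 0.05 in 0 cases and a median difference of -0.23, beside -0.22 over all genes tested. Whether these responses differ between lines was not tested.

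Chlorophyll synthesis genes, none of which is among the 163, were mostly lower after cold in the transgenic lines. Of 10 tested, 6 fell in OX and 8 in RNAi with none higher, while in WT 2 fell and 2 rose. Among all genes tested, 22.4% fell in OX, 28.1% in RNAi and 31.7% in WT, and 13.6%, 16.9% and 14% rose. PORA (Os04g0678700), for a light-dependent enzyme that reduces protochlorophyllide, averaged 56.4 ± 53.5 FPKM in the cold and 189 ± 7.77 FPKM in control OX leaves (SD, n = 3 each; log2 difference -2.13 ± 0.46, SE; limma, adjusted p = 0.00207). In RNAi it averaged 16.3 ± 4.36 FPKM in the cold and 193 ± 55.2 FPKM in control (-3.47 ± 0.46, adjusted p = 2.38e-05). In WT its averages were 131 ± 12.1 and 122 ± 44.6 FPKM (0.17 ± 0.46, adjusted p = 0.778). CHLI (Os03g0563300), a subunit of the magnesium chelatase, fell by 1.03 in OX (adjusted p = 0.00136), by 1.64 in RNAi (adjusted p = 1.74e-05) and by 0.74 in WT (adjusted p = 0.0101), where the call was lost without WT cold replicate 3 (adjusted p = 0.0521). GLUTR (Os10g0502400), for the reductase at the start of the pathway, rose by 0.95 ± 0.24 (SE) in WT (adjusted p = 0.00492). The other WT calls depended on single libraries. PORB (Os10g0496900), a relative of PORA, fell by 0.82 (limma, adjusted p = 0.0456), and the call was lost without any WT cold library or without WT control replicate 2 or 3 (adjusted p up to 0.1501). CHLG (Os05g0349700), for chlorophyll synthase, rose by 0.65 (adjusted p = 0.0114), and its call was lost without WT cold replicate 1 or WT control replicate 2 (adjusted p up to 0.0510). The differences between the lines' responses were not tested.

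**Figure D3:**
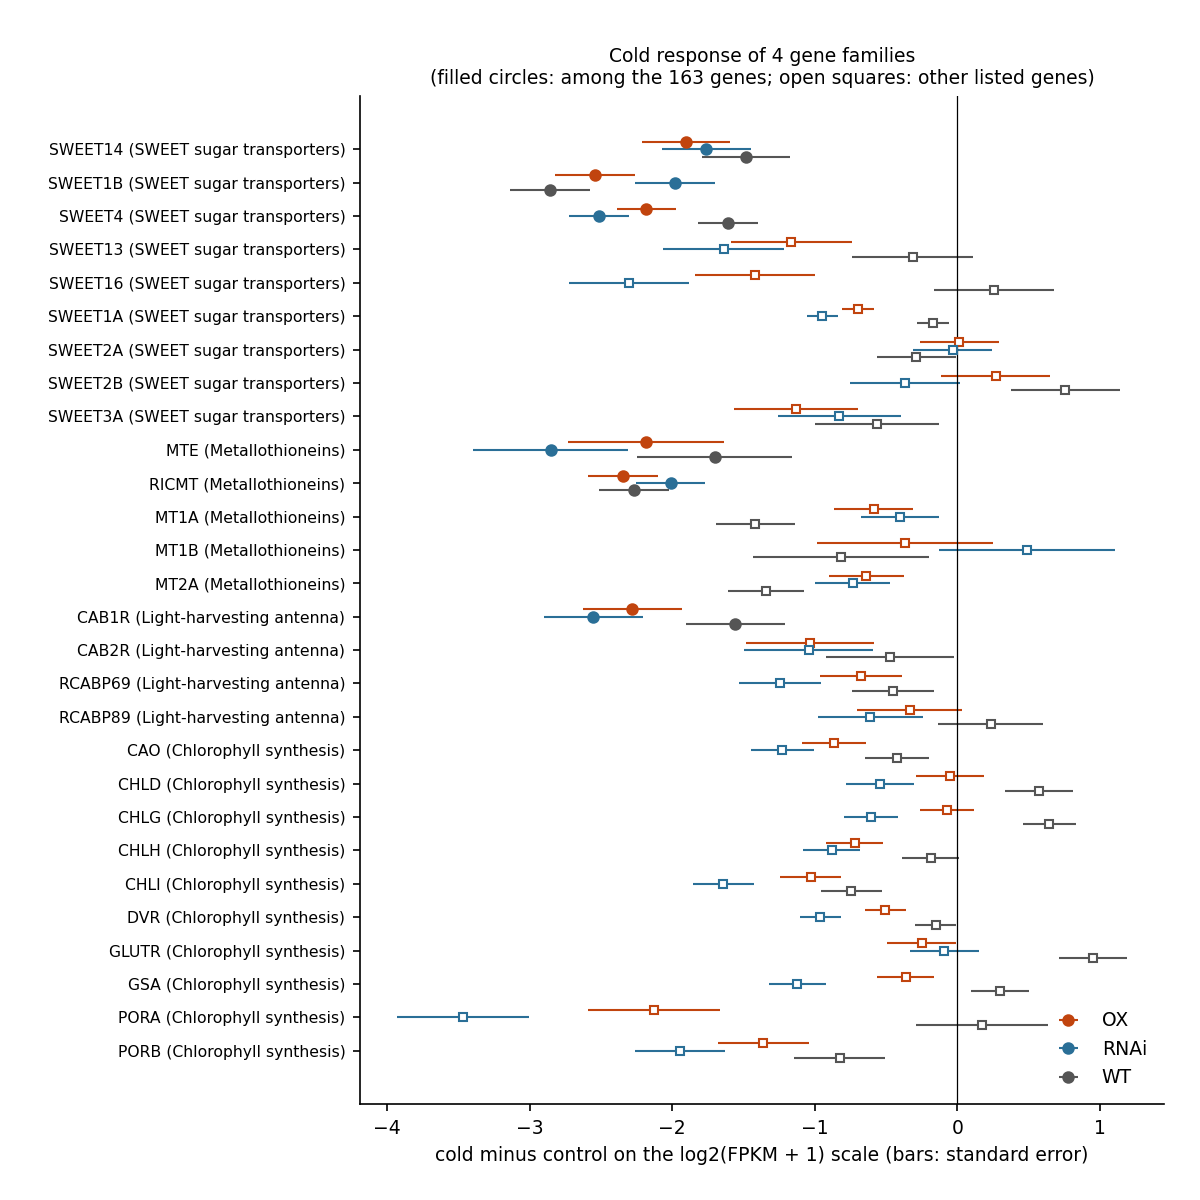
Cold minus control difference on the log2(FPKM + 1) scale with its standard error, for listed SWEET, metallothionein, antenna and chlorophyll synthesis genes in OX, RNAi and WT; filled circles are among the 163 genes, whose values carry no test, and open squares are the other listed genes. CAB1R, RICMT, MTE and the 3 SWEET members lie between -2.86 and -1.48 in every line, while PORA lies at -2.13 in OX, -3.47 in RNAi and 0.17 in WT.

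Of 11 tested aquaporin genes, for water channels and none among the 163, 5 fell in OX, 6 in RNAi and 9 in WT, and 0 rose in each. Among all genes tested, 22.4%, 28.1% and 31.7% fell in the same order of lines. TIP4-1 (Os05g0231700), a channel of the vacuolar membrane, averaged 106 ± 12.3 FPKM in the cold and 308 ± 44.8 FPKM in control OX leaves (SD, n = 3 each; log2 difference -1.52 ± 0.18, SE; limma, adjusted p = 1.1e-05). It fell by 1.41 in RNAi (adjusted p = 2e-05) and by 1.98 in WT (adjusted p = 7.5e-07). TIP1-1 (Os03g0146100) fell by 1.50 in OX, 2.19 in RNAi and 1.20 in WT (adjusted p = 0.000129, 2.45e-06 and 0.000751). Not all WT calls were firm. TIP1-2 lost its call without any WT cold library or without WT control replicate 2 or 3 (limma, adjusted p up to 0.179). PIP2-7 lost its call without WT cold replicate 1 or WT control replicate 2 (adjusted p up to 0.0663). PIP1-3 and TIP4-1 held in WT without each single library, and the other WT calls were not checked in this way.

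The remaining lists were mixed. Expansin genes, for proteins that loosen the cell wall, had 0 of 8 calls in OX (limma; 2 at an unadjusted p under 0.05), 2 higher in RNAi and 4 lower in WT. In RNAi EXPB3 lost its call without any RNAi cold library or without RNAi control replicate 1 or 2 (adjusted p up to 0.193). EXPA1, the other gene called in RNAi, held without each single library. EXPA2 (Os01g0823100) averaged 1.89 ± 1.11 FPKM in cold and 29.6 ± 9.72 FPKM in control WT leaves (SD, n = 3 each; -3.43 ± 0.64, SE; adjusted p = 0.000557). Of 10 genes listed as cellulose synthases, 1 rose in each line. In OX and RNAi this was CESA5 (Os03g0837100). In WT it was CSLF6 (Os08g0160500), a cellulose synthase-like gene for mixed-linkage glucan, which rose by 1.73 (adjusted p = 0.0122 in limma). That value was 0.85 without WT control replicate 2, and the call was lost when the 2 groups were fitted alone. Brassinosteroid genes had 3 of 5 higher and 1 lower in OX, 2 and 1 in RNAi, and 1 and 2 in WT. BZR1 (Os07g0580500), a transcription factor of the pathway, was higher in all 3 lines (by 2.19, 2.26 and 1.79). The rise of CYP85A1 in OX was lost without OX cold replicate 2 or 3 or OX control replicate 1 or 3. The fall of D2 in WT was lost without WT cold replicate 1 or WT control replicate 1. Of 3 gibberellin genes, SLR1 (Os03g0707600), the DELLA repressor of growth, rose in each line (by 0.84 in OX, 0.59 in RNAi and 0.99 in WT). In WT 1 fell, GA20OX2, a call that was lost without WT cold replicate 1.

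Of 4 sucrose and starch genes, 1 fell in OX, 1 in RNAi and 2 in WT, and 1 rose in WT. The rise of AGPS2 and the fall of SS1 in WT were lost without WT control replicate 2. SUT1 (Os03g0170900), the phloem sucrose transporter, fell by 1.15 in OX (adjusted p = 0.00129), by 1.28 in WT (adjusted p = 0.000488) and by 0.62 in RNAi (adjusted p = 0.0447), where every library but RNAi cold replicate 3 was needed for the call (adjusted p up to 0.165). Of 6 nitrogen assimilation genes, 0 were called in OX (0 at an unadjusted p under 0.05). In RNAi 1 was higher and 1 lower, and in WT 2 were higher and 1 lower. Each of the WT calls, GLN2, NIA1 and AMT1-1, was lost without WT control replicate 2. The higher gene in RNAi, FD-GOGAT, lost its call without RNAi cold replicate 1 or 2 or RNAi control replicate 1 (limma, adjusted p up to 0.0981). The lower one, GLN1-1, held. Of 4 cell division genes 1 rose in each line, CDKB2-1 (Os08g0512600), and 2 fell in WT, CDKB1-1 and PCNA. Both falls were lost without WT cold replicate 1 or 2 or WT control replicate 1 or 2 (limma, adjusted p up to 0.149 and 0.119). They were also lost after median-ratio scaling. Neither of the 2 Rubisco genes was called in any line (0 of 2 at an unadjusted p under 0.05).

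Over the 75 tested genes of these lists outside the 163, 6 rose and 16 fell in OX, 8 rose and 22 fell in RNAi, and 9 rose and 25 fell in WT. Among all genes tested, 13.6% rose and 22.4% fell in OX, 16.9% and 28.1% in RNAi, and 14% and 31.7% in WT. The median difference of the listed genes was -0.27 in OX, -0.48 in RNAi and -0.19 in WT, beside -0.18, -0.16 and -0.22 over all genes. Median-ratio scaling brought the medians of all genes to -0.01, -0.00 and 0.01, and the listed genes then counted 15 higher and 15 lower in WT, and 11 higher and 19 lower in RNAi. These lists were written with the cold response of the series known.

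Among the genes with the lowest cold levels, Os03g0140400 had 0.579, 0.787 and 0.824 FPKM in cold OX leaves, against 10.8, 14.2 and 20.5 FPKM in control. RNAi leaves had 0.674, 1.04 and 0.181 FPKM in the cold, against 18.9, 14.6 and 12.8 FPKM in control. WT leaves had 0.683, 0.0421 and 0.0274 FPKM in the cold, against 37.1, 9.12 and 23.3 FPKM in control. Every control library was above every cold library, and the cold means were 4.82%, 4.09% and 1.08% of control in OX, RNAi and WT.

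Next to it on chromosome 3, Os03g0140200 had nearly the same depth in the lines, at 4.96% of control in OX, 5.25% in RNAi and 4.71% in WT. Its cold libraries ranged from 0.327 to 1.84 FPKM and its control libraries from 8.28 to 31.0 FPKM. Beside them, Os03g0140100 was less deep at 32.2%, 24.5% and 12.8%. Only 1 row lies between Os03g0140200 and Os03g0140400 in the order of locus numbers, and none between Os03g0140100 and Os03g0140200.

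Os10g0522700 and Os03g0223100 were low in all cold libraries too. Os10g0522700 ranged from 0.259 to 1.68 FPKM over the 9 cold libraries and from 11.6 to 21.8 FPKM over the 9 control libraries, and its cold means were 4.55%, 9.72% and 3.86% of control in OX, RNAi and WT. Os03g0223100 ranged from 0.656 to 1.68 FPKM in the cold and from 12.7 to 28.8 FPKM in control, at 7.36%, 4.67% and 5.29%. No functions are given for these genes, since the table and the reference pair them with no name.

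The gene with the lowest ratio of all, Os10g0569600, rests on single libraries. It was listed at 0, 0.274 and 0.289 FPKM in cold OX leaves, against 3.84, 0.643 and 45.8 FPKM in control. RNAi leaves had 0.153, 0 and 0 FPKM in the cold, against 46.5, 0 and 0.125 FPKM in control. WT leaves had 1.79, 0.917 and 8.43 FPKM in the cold, against 33.1, 4.91 and 1.36 FPKM in control. In RNAi and WT the groups overlapped, and the control mean of each line came mostly from 1 library, OX control replicate 3, RNAi control replicate 1 and WT control replicate 1.

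Os05g0550300 and Os03g0852400 had similar single libraries. Os05g0550300 had 82.8 FPKM in OX control replicate 3, against 7.67 and 13.7 FPKM in the other OX control libraries, with cold OX libraries between 1.13 and 1.94 FPKM. In WT control replicate 2 it had 1.49 FPKM, which lay within the WT cold range of 0 to 2.28 FPKM. Os03g0852400 had 1.08 FPKM in that same library, below all WT cold libraries (1.54, 2.91 and 1.66 FPKM), while the other WT control libraries had 17.2 and 25.3 FPKM.

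Os11g0242600 had 0.324 to 1.63 FPKM over the 9 cold libraries. Its control libraries had 14.7, 21.0 and 19.99 FPKM in OX, 14.3, 19.5 and 17.4 FPKM in RNAi, and 19.3, 2.105 and 20.8 FPKM in WT. All control libraries stood above all cold ones, and WT control replicate 2 was the nearest to them. Os12g0573600 was deepest in WT, where the cold libraries had 0.281, 0.344 and 0.0501 FPKM, against 39.9, 6.44 and 21.1 FPKM in control.

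Of the abundant genes without a name, Os06g0218600 differed most between lines. Cold OX leaves had 23.7, 83.2 and 77.2 FPKM, against 269.7, 354 and 346 FPKM in control. Cold RNAi leaves had 10.4, 14.5 and 4.52 FPKM, against 334, 531 and 366 FPKM in control. Cold WT leaves had 56.5, 103 and 64.5 FPKM, against 312, 7.56 and 360.4 FPKM in control. The cold level was 19.0% of control in OX, 2.39% in RNAi and 32.9% in WT, and without WT control replicate 2, where it was nearly absent, the WT value was 22.2%.

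Os02g0223700 kept a similar depth across the lines, with cold levels of 12.3%, 9.95% and 9.06% of control in OX, RNAi and WT. Its cold level was still called higher in OX than in WT (31.4 ± 4.80 against 18.4 ± 2.89 FPKM, SD, n = 3 each). The difference was 0.74 ± 0.21 (SE; limma, adjusted p = 0.0326). That call was lost without OX or WT cold replicate 1 or 2 (adjusted p up to 0.152). This gene had 31.6, 36.1 and 26.5 FPKM in cold OX leaves, against 205, 213 and 345 FPKM in control. The other abundant genes were Os01g0647200, Os05g0103400, Os01g0871500 and Os01g0117900. Their cold means lay between 13.0% and 31.3% of control.

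The 163 genes lay on all 12 chromosomes. They made up between 1.31% of the genes at the floor on chromosome 9 and 3.45% on chromosome 6, where 24 of 696 were members. In the order of locus numbers, 15 pairs of members had at most 10 rows between them, involving 28 genes. Among these were Os06g0714300, Os06g0714800 and Os06g0715200 on chromosome 6. Neighbouring and similar genes can share reads, and how reads were counted for the table is not known from its labels.

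In that stretch, Os06g0714800 had 4.84, 8.26 and 4.96 FPKM in cold OX leaves, against 57.4, 73.2 and 125 FPKM in control. In RNAi it had 5.94, 5.37 and 6.01 FPKM in the cold, against 82.5, 69.3 and 81.8 FPKM in control. In WT it had 4.16, 4.67 and 3.85 FPKM in the cold, against 85.6, 48.1 and 58.1 FPKM in control. Its depth hardly varied between the lines, at 7.06%, 7.41% and 6.61% of control. Its neighbours were deepest in WT, with Os06g0714300 at 28.5%, 32.1% and 7.38% and Os06g0715200 at 19.9%, 25.8% and 13.9% in OX, RNAi and WT.

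The depth of the lowering varied between lines by a median factor of 1.76 between the highest and the lowest of a gene's 3 percentages. In 59 genes that factor was under 1.5, and in 24 it was over 3. Os07g0509700 was the most even, at 22.5% of control in OX, 22.4% in RNAi and 23.3% in WT. RNAi was the deepest line for 67 genes, WT for 71 and OX for 25, and OX was the shallowest for 49, RNAi for 56 and WT for 58.

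Of the 24 genes with a factor over 3, 13 were deepest in RNAi and 11 in WT, and none in OX. Those deepest in RNAi included Os03g0382100 (14.3%, 3.32% and 23.1% in OX, RNAi and WT) and Os05g0527800 (32.4%, 4.99% and 28.8%), and both were low in WT control replicate 2. Those deepest in WT included Os12g0573600 (6.53%, 11.2% and 1.00%), Os09g0462100 (5.40%, 12.0% and 1.47%) and Os07g0142100 (16.8%, 12.6% and 3.63%). The limits cap each percentage, so these orders are a description, and no test of a difference in response was made.

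**Figure D4:**
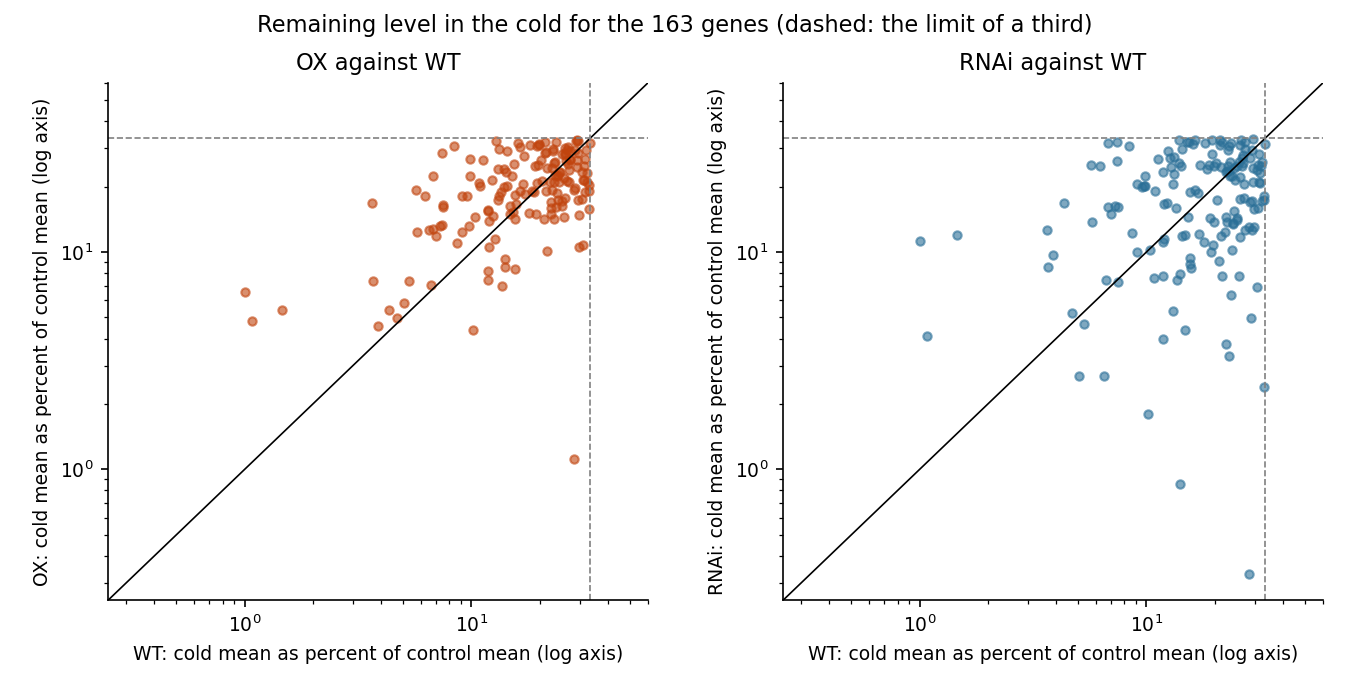
Cold mean as a percentage of the control mean on log axes for the 163 genes, OX (left) and RNAi (right) on the vertical axis and WT on the horizontal axis; the solid line marks equal values and the dashed lines the limit of 33.3%. Points crowd below the limit on both axes, and RNAi has more genes far below the solid line than OX, down to 0.329% for Os10g0569600.

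The lines were then compared within each condition. The choice of genes did not use these differences, but it used the same group means. By setting a floor on control and a cap on cold in every line, it limits how far the lines can differ, so nothing about the 163 genes as a group is read from how many were called. In control leaves almost none of the 163 genes passed the test between lines. By limma with Benjamini-Hochberg adjustment over all 23175 genes tested, 0 of 163 were called between OX and WT (14 at an unadjusted p under 0.05), where 4% of all genes were called. Between RNAi and WT 0 of 163 were called (22 at an unadjusted p under 0.05), where 2.61% of all genes were called. The differences of the single genes ran from -1.89 to 1.70 for OX minus WT and from -2.91 to 2.03 for RNAi minus WT on the log2(FPKM + 1) scale, with medians of 0.17 and 0.06, beside 0.02 and -0.06 over all genes. Both comparisons use the same WT control libraries. Between OX and WT, 1 gene was called without OX control replicate 1, and 2 were called without OX control replicate 2 or WT control replicate 2. Between RNAi and WT, 3 were called without RNAi control replicate 1 and 1 without WT control replicate 3.

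Between OX and RNAi control leaves 1 of 163 genes was called, where 1.73% of all genes were called and 0.841% called as lower. This was Os03g0131950, with 15.4, 17.1 and 8.40 FPKM in OX, against 24.6, 30.8 and 30.9 FPKM in RNAi. The groups did not overlap, and the difference was -1.07 ± 0.25 (SE, adjusted p = 0.0435). Without OX control replicate 2, 5 genes were called. The call of Os03g0131950 was lost without any one of 5 libraries, namely OX control replicates 1 and 3 and each RNAi control library, at adjusted p up to 0.241.

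In cold leaves 10 of 163 genes (6.13%) were higher in OX than in WT and 0 lower, where 12.9% of all genes were called, 9.49% as higher and 3.38% as lower. The median difference was 0.21, beside 0.08 over all genes. Of the 163 differences 110 were above 0, but that share was not counted over all genes, so nothing is read from it. Groups did not overlap, with OX above WT, for 40 of the 163 genes (24.7% of all genes) and with OX below WT for 10 (13.3% of all genes). Of the 10 calls, 5 held without each single library, Os06g0714300, Os04g0364800, Os06g0601100, Os08g0323400 and Os06g0715200, the last of which was named after its values had been seen. Leaving out OX cold replicate 2 or WT cold replicate 1 gave 5 calls, and leaving out WT cold replicate 2 gave 6.

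Os06g0714300 had 3.98, 5.18 and 3.50 FPKM in cold OX leaves, against 0.418, 1.34 and 1.14 FPKM in cold WT leaves. The difference was 1.43 ± 0.29 (SE, adjusted p = 0.00425), the largest of the calls. Os06g0601100 was the most abundant, with 74.8, 77.9 and 58.0 FPKM in cold OX leaves, against 30.6, 30.7 and 36.3 FPKM in cold WT leaves, a difference of 1.08 ± 0.16 (adjusted p = 0.000515). Os04g0364800 averaged 4.42 ± 1.55 FPKM in OX and 1.33 ± 0.29 FPKM in WT (SD, n = 3 each), a difference of 1.19 ± 0.21 (adjusted p = 0.002 in limma). All OX libraries of these genes were above all WT libraries.

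Os04g0587400 and Os10g0509401 were also called higher in OX, by 0.95 and 0.94 (adjusted p = 0.0427 for both in limma). The call of Os04g0587400 was lost without any OX cold library or without WT cold replicate 1 or 2 (adjusted p up to 0.172). That for Os10g0509401 was lost without OX cold replicate 2 or 3 or WT cold replicate 1 or 3 (adjusted p up to 0.209).

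In cold leaves 20 of 163 genes (12.3%) were called between RNAi and WT, 15 as higher in RNAi and 5 as lower. Of all genes 27.6% were called, 15.7% as higher and 11.9% as lower. The cap on the cold means applies here too. The median difference was 0.00, beside 0.02 over all genes. Quantile normalization gave 12 higher and 8 lower, and a fit of the 2 groups alone gave 21 higher and 24 lower, so the balance of directions is not firm. Without each single library 9 of the 20 calls held. The count was 12 without RNAi cold replicate 2 or WT cold replicate 2, 13 without RNAi cold replicate 3 and 10 without WT cold replicate 1.

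Os08g0323400 had 35.0, 32.9 and 39.2 FPKM in cold RNAi leaves, against 13.2, 10.3 and 13.7 FPKM in cold WT leaves. The difference was 1.46 ± 0.13 (SE, adjusted p = 6.09e-06), the smallest p of the calls. In cold OX leaves it had 25.9, 26.5 and 20.6 FPKM, which lay between the other lines and above all WT libraries (0.92 for OX minus WT, adjusted p = 0.000366). In control leaves the libraries of the 3 lines ranged from 177 to 244 FPKM.

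Os06g0714300 was also higher in RNAi than in WT in the cold, with 2.60, 3.37 and 5.39 FPKM against 0.418, 1.34 and 1.14 FPKM (1.28 ± 0.29, SE; limma, adjusted p = 0.00445). So were Os09g0462100, with 1.53, 1.62 and 1.52 FPKM against 0.0714, 0.328 and 0.231 FPKM (1.09 ± 0.26, adjusted p = 0.00706), and Os08g0475100 and Os04g0364800, by 0.88 and 0.86 (adjusted p = 0.00885 and 0.00798). RNAi libraries were above all WT libraries for each. The RNAi and OX comparisons share the WT cold libraries, so a gene called in both is not shown by independent data.

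Among the 5 genes lower in RNAi than in WT after cold were CAB1R and SWEET4. CAB1R averaged 541 ± 189 FPKM in cold RNAi and 1164 ± 204 FPKM in cold WT leaves (SD, n = 3 each), a difference of -1.15 ± 0.35 (SE; limma, adjusted p = 0.0237). It was lost without RNAi cold replicate 2 or 3 or WT cold replicate 1 or 2 (adjusted p up to 0.0969). SWEET4 averaged 51.6 ± 2.43 FPKM in cold RNAi and 94.1 ± 4.79 FPKM in cold WT leaves, a difference of -0.85 ± 0.21 (adjusted p = 0.00772), which held without each library (adjusted p up to 0.0319). For OX minus WT in the cold the difference was -0.77 (adjusted p = 0.163) for CAB1R and -0.50 (adjusted p = 0.128) for SWEET4, neither of which passed, although the libraries did not overlap.

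Os05g0103400 was lower in RNAi as well, with 35.1, 39.4 and 29.0 FPKM against 56.4, 62.1 and 58.3 FPKM in cold WT leaves (-0.77 ± 0.20, SE; limma, adjusted p = 0.0104). Os06g0218600 had the largest difference, -2.88 ± 0.99 (adjusted p = 0.0418), and lost its call without any one of the 6 libraries (adjusted p from 0.06 to 0.132). Os01g0192300 fell short without RNAi cold replicate 2 or 3 or WT cold replicate 1 (-0.72 ± 0.20, adjusted p = 0.0167, up to 0.0637). SWEET1B, in the other direction, was higher in RNAi by 0.79 ± 0.28 (adjusted p = 0.0485) and lost its call without any library but WT cold replicate 3 (adjusted p up to 0.168).

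Between OX and RNAi in the cold 5 of 163 genes (3.07%) were called, 3 as higher in OX and 2 as lower, where 5.94% of all genes were called, 3.75% as higher and 2.19% as lower. Os01g0647200 had 132, 73.1 and 119 FPKM in OX, against 26.2, 50.6 and 46.5 FPKM in RNAi (1.38 ± 0.39, SE; adjusted p = 0.0483 in limma), and lost its call without any one library (adjusted p up to 0.208). Os11g0634200 and Os05g0475700 were higher in OX by 1.21 and 0.90, and Os08g0475100 and Os08g0323400 lower by 0.80 and 0.54 (adjusted p = 0.0246, 0.0493, 0.0435 and 0.027). None of the 5 calls held without each single library. Os11g0634200 needed OX cold replicates 2 and 3 and RNAi cold replicates 1 and 2 (adjusted p up to 0.112). Os05g0475700 and Os08g0475100 needed every library but OX cold replicate 1 (adjusted p up to 0.203 and 0.164). Os08g0323400 needed OX cold replicate 3 and RNAi cold replicates 1 and 3 (adjusted p up to 0.139). The count was 0 without OX cold replicate 3 or RNAi cold replicate 1, 1 without RNAi cold replicate 2 and 2 without OX cold replicate 2. Quantile normalization gave 1 higher and 2 lower, and a fit of the 2 groups alone 10 higher and 0 lower.

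**Figure D5:**
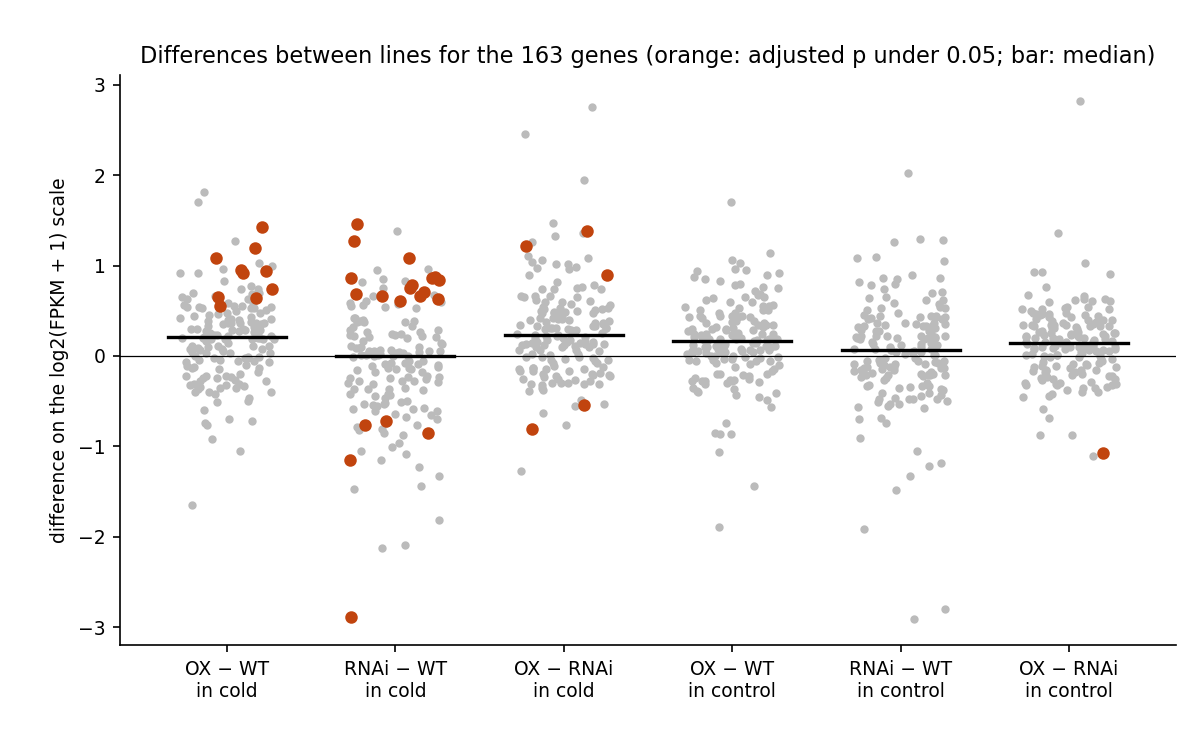
Difference between lines on the log2(FPKM + 1) scale for each of the 163 genes, in cold leaves (left 3 columns) and control leaves (right 3 columns); orange points passed an adjusted p of 0.05 in limma and bars are medians over the 163 genes. In the cold 10 of 163 were called for OX minus WT, 20 for RNAi minus WT and 5 for OX minus RNAi. Of all genes tested, 12.9%, 27.6% and 5.94% were called there. In control leaves 0, 0 and 1 of 163 were called, where 4%, 2.61% and 1.73% of all genes were.

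Over the 6 line comparisons 28 of the 163 genes were called at least once and 135 never. The same share over all genes was not counted, so nothing is read from these counts. No gene was called in both conditions for the same pair of lines. With 0, 0 and 1 calls in control leaves there was almost no room for such a gene, so nothing is read from this either. At the edge of the choice, Os12g0153900, Os06g0114700 and CAB1R lay just inside the cold limit, with their highest percentages at 33.2%, 33.2% and 33.1%, and Os03g0856100, Os03g0835150 and Os05g0372200 just outside, at 33.4% each. At the control floor, Os06g0468400, Os03g0215900 and Os04g0415200 lay just inside, with lowest control means of 10.1, 10.2 and 10.2 FPKM. Just outside were Os03g0232400, Os08g0474866 and Os07g0532500, at 9.999, 9.88 and 9.63 FPKM.

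The number of genes depends on scaling and on single libraries. With median-ratio scaling, which raises cold libraries relative to control ones, the median cold level of the 163 genes was 22.9% in OX, 20.5% in RNAi and 23.9% in WT, and 96 genes met the limits. Leaving out each library in turn gave between 140 genes (without WT control replicate 1) and 189 genes (without WT control replicate 2), and 83 of the 163 genes met the limits in all 18 such runs. Of the 6 genes with a checked name, RICMT and SWEET1B were among these 83. CAB1R failed without WT cold replicate 1, WT cold replicate 3 or WT control replicate 2, MTE without WT control replicate 1, and SWEET4 without WT control replicate 3. SWEET14 failed without WT cold replicate 1 or 3 or WT control replicate 1 or 3.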

How the data were processed

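Leaf RNA was extracted with Trizol and made into libraries with an Illumina TruSeq RNA kit, per the labels' protocols. The authors deposited 1 table of FPKM values per gene. The submitters' processing notes list Bowtie 0.12.2, and the genome build, annotation and counter are unknown here. Read depth is unknown too, so no counting intervals are given.

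Groups come from the sample labels, and 0 sample columns were left unused. The members and gene lists were chosen with earlier results of these data known. Genes with at least 1 FPKM in at least 3 libraries were tested on log2(FPKM + 1) with limma 3.58.1 in R 4.3.3, using 6 group means over 18 libraries, a variance trend and Benjamini-Hochberg adjustment (called at an adjusted p under 0.05). Fold changes of low genes are understated on this scale. Other steps used Python 3.11.15 with pandas 2.3.3, numpy 2.4.6 and matplotlib 3.10.9. The fit was also run on simulated independent libraries with no library set apart, which cannot speak for calls that rest on single libraries.

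Of 127 loci with a name written from background knowledge, 99 were checked by chromosome and order against a reference gene table of another assembly (ASM3414082v1), and 28 were left out. Genes named in the text are the 10 with the lowest cold-to-control ratio, the 10 with the highest control mean, those with a checked name, up to 5 called genes per direction and line comparison whose groups do not overlap, the 3 nearest on each side of the limits and up to 4 called genes per list. Others were chosen after their values were seen. Alternatives were another pseudocount, filter, scaling, fit and limit, a replicate block, and each library left out.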

Additional observations from a re-analysis of the deposited data

How the results depend on the processing

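Of 108 single tested differences, 64 stayed past the threshold under all alternatives and 44 missed it under at least 1. None changed direction. Between OX and WT control leaves quantile normalization gave 1 call and median-ratio scaling 1, and leaving out single libraries gave 0 to 2. Between RNAi and WT control leaves leaving out libraries gave 0 to 3. Between OX and RNAi control leaves 0 were called with a pseudocount of 0.1, with no filter, with a filter of 5 FPKM or with the 2 compared groups fitted alone, and leaving out libraries gave 0 to 5. Between OX and WT cold leaves 5 were called after quantile normalization and 19 with the 2 groups alone, and leaving out libraries gave 5 to 11. Between RNAi and WT cold leaves 32 were called with a pseudocount of 0.1 and 45 with the 2 groups alone (21 higher, 24 lower), and leaving out libraries gave 10 to 19. Between OX and RNAi cold leaves 2 were called with no filter, 3 after quantile normalization, 3 without the variance trend and 10 with the 2 groups alone (10 higher, 0 lower), and leaving out libraries gave 0 to 6. The cause of these changes was not tested. The total counts of called list genes kept within 1.5 times under all alternatives, but the genes called and their directions changed. In WT the main fit called 34, with 9 higher and 25 lower. Median-ratio scaling gave 15 higher and 15 lower and kept 24 of the 34 calls. Leaving out WT control replicate 2 gave 5 higher and 25 lower and kept 23.

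The number of genes meeting the limits was 455 with a cold mean of at most 1 / 2 of control, 78 with at most 1 / 4, 245 with a control floor of 5 FPKM, 80 with a floor of 20 FPKM, 94 when every cold library had to meet the limit, and 96 after median-ratio scaling.

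With a replicate block, 10 genes were called for OX minus WT, 19 for RNAi minus WT and 4 for OX minus RNAi in the cold, 0, 0 and 1 in control leaves, and 23, 30 and 32 listed genes in the cold responses of OX, RNAi and WT. Of 45 correlations between same-numbered libraries 16 were over 0.1 and 21 under 0, with a range from -0.595 to 0.409. Libraries of unlike numbers were not compared, so these values do not show whether the numbers mark pairs. The main fit did not take them as pairs.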
